A study of Rattus norvegicus with 16 samples.

Results

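Schwann cells purified from the crushed sciatic nerve of the rat were compared between day 5 and day 3 after injury, across all genes. The comparison rests on 4 of the 16 libraries of the series, the Schwann cell libraries labelled as replicates 1 and 2 at 5 days and replicates 1 and 2 at 3 days after crush. The other libraries used here were 2 of Schwann cells from uncrushed nerves, 2 of Schwann cells at day 7, and the 8 whole nerve libraries of the same time points. Every crushed rat was operated on at postnatal day 18, no sham operation was made, and the segment distal to the crush was collected. Animals collected at day 5 were therefore also older than those collected at day 3, and age and time after crush cannot be told apart. Postnatal day 18 is also the only age given for uncrushed rats, so age may also differ between uncrushed cells and those of days 3, 5 and 7. Each library was made from at least 10 pooled nerves. Whole nerve RNA was purified from the tissue itself, while the Schwann cell libraries came from dissociated nerves. Dissociated cells were depleted on dishes coated with antibodies against CD45 and Thy1, which hold back blood cells and fibroblasts, and Schwann cells were then captured on a dish against the lipid antigen O4. Nothing in the sources describes how the pools of 1 day were separated. The p-values given here measure the spread between libraries, estimated over all libraries of a fit, which need not be that between independent pools.

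Schwann cells wrap peripheral axons in myelin, and after an axon is cut off from its cell body they shut down myelin genes, divide, digest myelin debris and take on a repair state that supports regrowth. Promyelin transcription factors such as Egr2 (Krox20) and Pou3f1 (Oct6) drive the return to myelination, while Jun, Runx2 and neurotrophic ligands mark the repair state. Both days compared here fall after the onset of injury, so the comparison asks which genes moved between an earlier and a later injured state.

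The 4 libraries held 15806398 and 27562637 expected counts at day 3 and 18678860 and 16562931 at day 5. The identity of the cells was checked against markers. Sox10, the transcription factor that defines the Schwann cell lineage, was measured at 67.2 and 63.6 FPKM at day 3 and 63.9 and 66.3 FPKM at day 5 and was not called (log2 -0.08 ± 0.11, adjusted p 0.682). Summed over 27 macrophage markers the level was 27.3 and 126 CPM (counts scaled to library size) at day 3 and 53.9 and 27.0 CPM at day 5, against 10250 to 11850 CPM for 12 Schwann cell markers. The second day 3 library held more macrophage marker RNA than the other 3. In that library Ptprc (CD45) was at 1.29 FPKM against 0.18 in the other day 3 library, and Cpa3, a mast cell protease, was at 12.3 against 3.06. Summed endothelial markers were at 7.72 and 21.6 CPM at day 3 and 8.65 and 10.6 CPM at day 5. Fibroblast markers were far higher, at 1593 to 2060 CPM at day 5 and 1590 and 1744 CPM at day 3. No macrophage marker in the files was at 0 in all 4 libraries. None of the 17 macrophage markers that could be tested was called, and their median log2 fold change was -0.85, which became 0.90 without the second day 3 library and -1.32 without the first, where 5 were called lower. With no filter on low counts 5 were also called lower. In bulk RNA a smaller number of cells of a type and less RNA per cell cannot be told apart. Transcripts of the mitochondrial genome took 5.70% and 5.86% of counts at day 3 and 4.12% and 3.21% at day 5.

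Of 14961 genes with enough counts to test, 976 (6.52%) rose and 1033 (6.90%) fell between day 3 and day 5, together 13.4% of the genes tested, in edgeR's quasi-likelihood test at a Benjamini-Hochberg adjusted p below 0.05, referred to below as called. Most changes were modest. At least a 2-fold change was reached by 626 of the called genes, 310 upward and 316 downward, and the median size of a called change was 0.76 on the log2 scale upward and 0.71 downward. The 4 libraries did not overlap between days for 9072 genes, 60.6% of those tested, so absence of overlap alone marks little with 2 libraries a day. The smallest p that an exact two-sided permutation test of 2 against 2 libraries can give is 0.333, and p-values here come from the fit across all genes. On simulated counts of this design the share of unchanged genes among the calls was above the nominal level, so the calls may hold more false ones than the threshold implies. The number of calls depended on the libraries: it was 953 without the first and 815 without the second day 3 library, and 822 and 1043 without the first and the second day 5 library. Leaving out an uncrushed library instead gave 2517 and 2540 calls. For the gene lists the share called stands beside each count, to be read against the 13.4% of all genes. Where it is followed by counts without 1 library, these are the lowest and highest numbers called when each of the 4 libraries of days 3 and 5 was left out in turn, which lowered the calls over all genes too. Values below are the authors' FPKM, a level scaled to transcript length and library depth, in replicates 1 and 2, followed by the log2 fold change of day 5 over day 3 with its standard error.

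**Figure D1:**
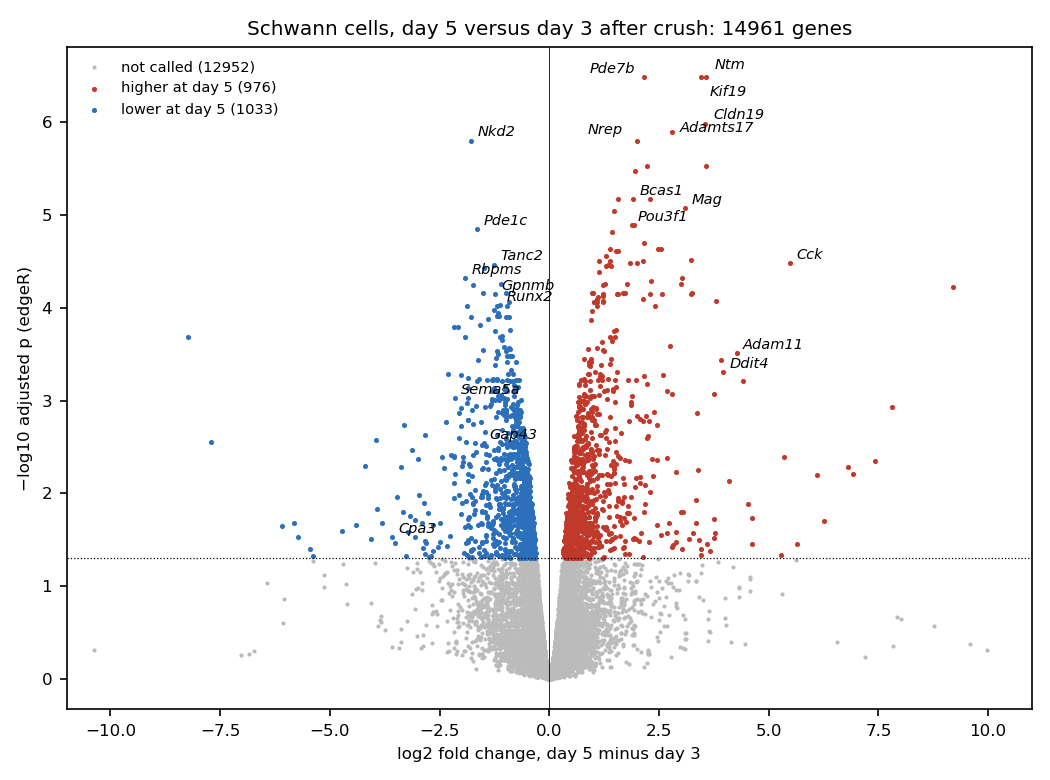
Each point is 1 of 14961 genes, with the log2 fold change of day 5 over day 3 in Schwann cells on the horizontal axis and −log10 of edgeR's adjusted p on the vertical axis. The dotted line is an adjusted p of 0.05, above which 976 genes lie to the right (red) and 1033 to the left (blue), with Ntm, Kif19, Pde7b and Cldn19 at the top of the right arm and Nkd2 at the top of the left arm.

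Of 14 genes for structural proteins of myelin, 7 rose and none fell, beside 6.52% of all genes that rose, and the median log2 fold change was 0.49, against 0.01 over all genes tested. Claudin-19, the tight junction protein of Schwann cell myelin encoded by Cldn19, was at 6.13 and 6.51 FPKM at day 3 and 64.9 and 67.3 FPKM at day 5. Both day 5 libraries lay far above both day 3 libraries, an 11.7-fold rise (log2 3.55 ± 0.17, adjusted p 1.04e-06). Mag, the myelin-associated glycoprotein that faces the axon, was at 0.91 and 0.7 FPKM at day 3 and 7.78 and 6.79 FPKM at day 5 (log2 3.09 ± 0.21, adjusted p 8.46e-06). Prx, encoding periaxin of the outer Schwann cell membrane, was at 1.93 and 2.04 FPKM at day 3 and 15.3 and 18.5 FPKM at day 5 (log2 3.00 ± 0.21, adjusted p 5.58e-05). These 3 genes, which were the scarcest of the risers at day 3, rose the most. The abundant genes rose less. Pmp2, a lipid-binding protein of myelin, went from 76.5 and 74.9 to 203 and 198 FPKM (log2 1.33 ± 0.16). Pmp22 went from 619 and 583 to 1120.2 and 1118 FPKM (log2 0.82 ± 0.11). Mal rose by log2 0.48 ± 0.14. Among the 7 not called, Mbp was at 382 and 409.7 FPKM at day 3 and 469.5 and 517 FPKM at day 5 (adjusted p 0.259). Drp2, a partner of periaxin, had a log2 fold change of -0.86 ± 0.27 and an adjusted p of 0.0842. When 1 of the 4 libraries was left out, 5 or 6 genes of the list were called higher. The distance from uncrushed cells differed among the risers. Pmp2 at day 5 lay within its uncrushed range of 226 and 179 FPKM, whereas Pmp22 lay far below its uncrushed 8584 and 8721 FPKM. Cldn19 stood at 226 and 243 FPKM in uncrushed Schwann cells and 208 and 148 at day 7. Mag stood at 43.9 and 52.2 FPKM in uncrushed cells and 19.9 and 15.1 at day 7.

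The promoters of the 3 myelin genes with the largest rise are shown beside that of Runx2, the single repair-state factor that fell. Only their letters are described. Each run is the 250 bases before the annotated start from RefSeq, assembly GRCr8, read 5′ to 3′ on the strand of the gene. Capitals mark the motifs of a search on both strands that fall in each window: GGGCGG (SP1) in Cldn19 and Runx2, ACAAAG (SOX) in Mag and GGAATG (TEAD) in Prx. Prx also holds a CCAAT box, left in lower case. Cldn19 lies at chr5:138148325-138148574, plus strand, Mag at chr1:95291045-95291294, minus strand, Prx at chr1:91914171-91914420, plus strand, and the one of the 2 annotated starts of Runx2 that held a capital motif at chr9:23742990-23743239, plus strand.
Cldn19: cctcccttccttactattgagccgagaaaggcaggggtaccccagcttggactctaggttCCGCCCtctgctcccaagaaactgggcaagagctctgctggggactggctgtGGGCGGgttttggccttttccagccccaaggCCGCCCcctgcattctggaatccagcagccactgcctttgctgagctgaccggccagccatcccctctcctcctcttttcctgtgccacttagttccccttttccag
Mag: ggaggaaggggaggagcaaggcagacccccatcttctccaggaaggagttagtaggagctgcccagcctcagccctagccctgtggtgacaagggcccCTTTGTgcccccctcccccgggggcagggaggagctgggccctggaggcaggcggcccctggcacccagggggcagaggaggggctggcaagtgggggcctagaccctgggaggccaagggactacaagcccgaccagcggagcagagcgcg
Prx: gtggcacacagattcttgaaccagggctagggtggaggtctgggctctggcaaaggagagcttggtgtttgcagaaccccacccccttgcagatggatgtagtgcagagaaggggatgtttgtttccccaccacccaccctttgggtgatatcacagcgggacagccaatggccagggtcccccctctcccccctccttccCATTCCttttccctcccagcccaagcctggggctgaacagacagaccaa
Runx2: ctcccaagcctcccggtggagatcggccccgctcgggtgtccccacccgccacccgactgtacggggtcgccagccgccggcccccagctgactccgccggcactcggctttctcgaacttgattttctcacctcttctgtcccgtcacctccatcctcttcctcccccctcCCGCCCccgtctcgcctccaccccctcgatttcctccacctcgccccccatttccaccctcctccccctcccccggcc

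A promoter was available for 10087 of the 14961 genes tested. The SOX letters occurred in 16.1% of the promoters of genes that rose, 14.3% of those that fell and 14.4% of all tested, and the TEAD letters in 13.1%, 12.4% and 12.2%. GGGCGG occurred in 61.4%, 65.3% and 62.7%. Among 11 structural myelin genes with a promoter, 5 held the TEAD letters and 3 the SOX letters, and 5 held GGGCGG. A match describes letters in the window and is not a binding site.

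Regulators of myelination moved in both directions. Among 15 factors that promote myelination 4 rose and 2 fell, with a median log2 fold change of 0.05 (40.0% called, and 2 or 3 higher and 1 lower without 1 library). Pou3f1, the POU-domain factor of the promyelin stage, was at 5.95 and 7.36 FPKM at day 3 and 28.6 and 23.3 FPKM at day 5 (log2 1.88 ± 0.14, adjusted p 1.28e-05). At day 5 it had already reached its level in uncrushed Schwann cells of 23.3 and 21.6 FPKM. Egr2, the zinc finger factor required for myelination, was at 32.2 and 30.7 FPKM at day 3 and 81.8 and 72.8 FPKM at day 5 (log2 1.22 ± 0.12, adjusted p 7.1e-05), against 270.0 and 286 in uncrushed cells. Srebf1, a regulator of lipid synthesis, and Tead1, a partner of Yap and Taz, rose by log2 0.67 ± 0.18 and 0.45 ± 0.10. Nab1, a corepressor that binds Egr proteins, fell by 0.87 on the log2 scale from 7.39 and 6.41 to 4.28 and 3.8 FPKM, and Yap1 fell by 0.43 on the log2 scale. The calls of Srebf1 and Yap1 were lost whichever of the 4 libraries was left out.

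Among 21 factors of the repair or immature state 4 rose and 1 fell, with a median log2 fold change of 0.01 (23.8% called, and 3 higher and 1 or 2 lower without 1 library). Runx2, a Runt-domain factor scarcely present before injury, was at 147 and 149 FPKM at day 3 and 69.0 and 75.1 FPKM at day 5. The day 5 libraries held 2.16-fold less (log2 -1.11 ± 0.12, adjusted p 9.36e-05), still far above the 2.1 and 2.16 FPKM of uncrushed cells. Id2, an inhibitor of basic helix-loop-helix factors, rose from 4.51 ± 0.75 to 19.0 ± 1.37 FPKM (mean ± SD, n = 2, log2 2.00 ± 0.18), and Egr3, Etv5 and Id1 rose by log2 0.98, 0.94 and 0.49. Jun, the central factor of the repair state, was at 232 and 218 FPKM at day 3 and 244 and 245 FPKM at day 5 (log2 0.04 ± 0.10, adjusted p 0.818), and Sox2 at 48.9 and 47.9 FPKM at day 3 and 49.4 and 42.6 FPKM at day 5 (adjusted p 0.575). Of 29 immediate-early genes 5 rose and 3 fell (27.6% called, and 5 or 6 higher and 2 or 3 lower without 1 library). Socs3, a feedback inhibitor of cytokine signaling, rose from 18.4 and 16.9 to 40.7 and 37.8 FPKM, while Ier3 and Nr4a3 fell by 0.86 and 0.81 on the log2 scale. Of 14 feedback regulators and targets of ERK signaling 3 rose (Dusp4, Dusp6 and Etv5, by log2 1.03, 0.95 and 0.94) and Ccnd1 fell. Of these 14 genes 28.6% were called, and without 1 library 2 or 3 were called higher and 1 lower.

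**Figure D2:**
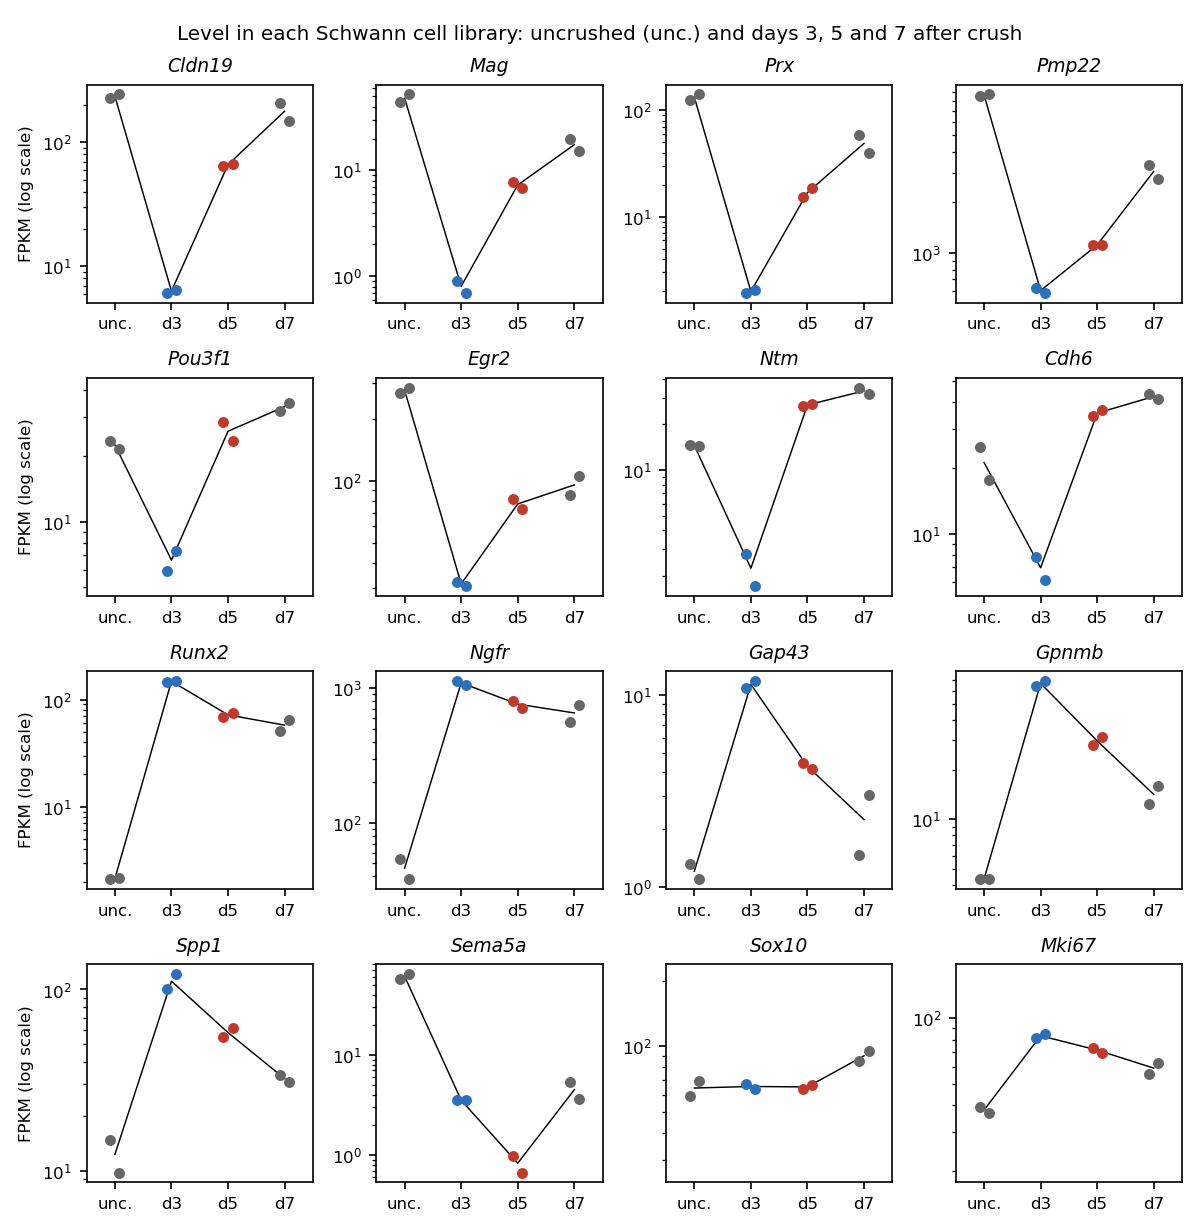
FPKM on a log axis in each Schwann cell library for 16 genes, with 2 points per time point (uncrushed, and days 3, 5 and 7 after crush), day 3 in blue, day 5 in red, and a line through the arithmetic means. Cldn19, Mag, Prx, Pmp22, Pou3f1, Egr2, Ntm and Cdh6 sit higher at day 5 than at day 3, Runx2, Ngfr, Gap43, Gpnmb, Spp1 and Sema5a sit lower, Mki67 sits slightly lower and Sox10 overlaps.

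The 3 genes that rose with the lowest p were Ntm, Pde7b and Kif19. Ntm, encoding the adhesion protein neurotrimin, was at 2.79 and 1.72 FPKM at day 3 and 26.5 and 27.2 FPKM at day 5 (log2 3.57 ± 0.16, adjusted p 3.28e-07). Kif19, a kinesin, was at 1.56 and 1.04 FPKM at day 3 and 14.8 and 14.7 FPKM at day 5 (log2 3.46 ± 0.17), and Pde7b, a cyclic AMP phosphodiesterase, at 4.71 and 4.7 FPKM at day 3 and 20.7 and 22.4 FPKM at day 5 (log2 2.15 ± 0.10). At day 5 Ntm lay above its uncrushed level of 14.6 and 14.4 FPKM and Kif19 above 12.2 and 13.1, and Pde7b overlapped its uncrushed level of 22.0 and 22.9. Cdh6, a cadherin, rose from 7.81 and 6.13 to 34.6 and 36.7 FPKM, above the 24.8 and 17.5 of uncrushed cells. Dab2, an endocytic adaptor, rose from 4.38 and 4.78 to 19.9 and 17.9 FPKM, and Nrep, named for its expression in regenerating neurons, from 30.2 and 36.1 to 165 and 121. Both remained below uncrushed cells, where Dab2 was at 45.5 and 38.5 FPKM and Nrep at 403 and 351. Bcas1, a protein of early myelinating glia in the brain, Tmprss5, a membrane serine protease, and Lrtm2, a leucine-rich repeat membrane protein, rose by log2 1.91 ± 0.14, 1.56 ± 0.11 and 3.58 ± 0.23. Among genes of at least 1 FPKM the gene with the largest fitted rise was Cck, encoding the peptide cholecystokinin, with 1 and 2 counts at day 3 and 73 and 54 at day 5. Against a floor of 3 counts per library this is at least 18.2-fold higher. Adam11, a catalytically inactive disintegrin, was at 0.1 and 0.17 FPKM at day 3 and 2.83 and 2.6 FPKM at day 5, Ddit4, a stress-induced inhibitor of mTORC1, at 0.08 and 0.43 FPKM at day 3 and 6.02 and 3.57 FPKM at day 5, and Ibsp, a bone matrix sialoprotein, at 0.4 and 0.58 FPKM at day 3 and 9.18 and 7.19 FPKM at day 5.

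The gene with the lowest p among those that fell was Nkd2. This gene, whose product restrains Wnt signaling through Dishevelled, was at 36.9 and 38.7 FPKM at day 3 and 11.8 and 11.3 FPKM at day 5 (log2 -1.79 ± 0.11, adjusted p 1.58e-06). At day 7 it stood at 5.34 and 6.2 FPKM, below both day 5 libraries. Pde1c, a calcium-dependent phosphodiesterase, fell from 92.6 and 83.7 to 32.6 and 29.4 FPKM (log2 -1.65 ± 0.13), and Tanc2, a scaffold protein, from 144 and 138 to 63.5 and 60.4 (log2 -1.26 ± 0.11). Igfbp5, which binds insulin-like growth factors, fell from 47.3 and 55.0 to 19.2 and 19.3 FPKM and was at 2.53 and 1.82 in uncrushed cells. These 3 genes had been higher at day 3 than in uncrushed cells. By contrast Rbpms, an RNA-binding protein, fell from 11.4 and 10.3 to 3.19 and 3.49 FPKM, further below its uncrushed level of 14.8 and 16.7. Cdk6, S100a4, Cdyl, Arhgef3, Gpnmb, Runx2 and Sema4f made up the rest of the 12 named genes with the lowest p, with log2 fold changes from -1.24 (Gpnmb) to -0.92 (S100a4). The largest falls by size among genes of at least 1 FPKM were Cpa3 at -3.58, 2 loci without a gene name, Clec2g at -2.17 and Sema5a at -2.16. Cpa3, at 3.06 and 12.3 FPKM at day 3 and 0.91 and 0.44 FPKM at day 5, was highest in the second day 3 library. Its fall was called without either day 3 library and was not called without either day 5 library.

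Of 21 trophic ligands 3 rose and 5 fell (38.1% called, and 1 to 3 higher and 2 to 4 lower without 1 library). The median log2 fold change was -0.28, and -0.38 to -0.16 without 1 library. Spp1, osteopontin, fell from 101 and 121 to 54.6 and 60.9 FPKM (log2 -1.03 ± 0.15). The epidermal growth factor family members Btc and Tgfa fell by 0.93 and 0.88 on the log2 scale, and the cytokine Clcf1 by 0.79. Of the risers, pleiotrophin (Ptn), a heparin-binding growth factor, went from 81.0 and 75.1 to 199.6 and 182 FPKM (log2 1.21 ± 0.14), past its uncrushed level of 75.7 and 56.6. Bdnf and Nrg1 rose from low levels, Bdnf at 0.7 and 0.85 FPKM at day 3 and 1.57 and 2.19 FPKM at day 5 and Nrg1, the axonal myelination signal also made by injured Schwann cells, at 0.05 and 0.1 FPKM at day 3 and 0.19 and 0.36 FPKM at day 5. Nrg1 was called in only 1 of the 4 fits that left out a library. Gdnf was not called at 65.2 and 78.2 FPKM at day 3 and 42.3 and 53.2 FPKM at day 5 (log2 -0.67 ± 0.25, adjusted p 0.135).

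Among 19 receptors of growth and trophic factors 4 rose and 6 fell (52.6% called, and 3 higher and 2 to 4 lower without 1 library). The median log2 fold change was -0.20, and ran up to -0.03 without 1 library. Ednrb, the endothelin B receptor, rose from 135 and 114 to 350.2 and 324 FPKM, and Pdgfrb from 3.06 and 3.74 to 8.54 and 8.31, both by log2 1.22. Lpar1, a lysophosphatidic acid receptor, and Gfra1, the receptor of Gdnf, rose by 0.72 and 0.48 on the same scale. Gfra2, which binds neurturin, fell from 14.3 and 12.9 to 7.3 and 5.02 FPKM (log2 -1.18 ± 0.16), and Ntrk2, Met and Igf1r fell by 0.98, 0.68 and 0.39 on the log2 scale. Ngfr (p75), the neurotrophin receptor of denervated Schwann cells, was at 1132 and 1059 FPKM at day 3 and 809 and 714 FPKM at day 5 (log2 -0.60 ± 0.17, adjusted p 0.0476). This fall lost its call in 9 of 19 alternative settings, among them upper quartile normalization and the omission of any of the 4 libraries. It ranged from log2 -0.72 to -0.49. Egfr was barely present, at 0.11 and 0.28 FPKM at day 3 and 0.1 and 0.05 FPKM at day 5, and its fall was not called without the second day 3 library or either day 5 library.

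Of 50 axon guidance genes tested, 14 rose and 7 fell, 42.0% called beside 13.4% of all genes. Receptors of the ephrin, netrin and Slit families made up 8 of the 14 risers. Ephb1, an ephrin receptor, was at 0.2 and 0.13 FPKM at day 3 and 1.09 and 1.26 FPKM at day 5 (log2 2.79 ± 0.37, adjusted p 0.000861), and Ephb6, which lacks kinase activity, at 0.21 and 0.21 FPKM at day 3 and 0.93 and 0.84 FPKM at day 5 (log2 2.00 ± 0.31). Epha7, Ephb3 and Ephb4 rose by log2 2.38 ± 0.37, 0.88 ± 0.21 and 0.78 ± 0.20. The netrin receptors Unc5d and Unc5c rose by 3.36 ± 0.52 and 0.95 ± 0.17, and the Slit receptor Robo1 by 2.53 ± 0.68, each from under 1 FPKM at day 3. Among ligands, Efnb1 rose from 3.9 and 3.43 to 9.31 and 6.78 FPKM, and Efnb3 had 1 count in each day 3 library and 13 and 5 at day 5, at least 2.54-fold higher against the floor of 3 counts. The semaphorins moved both ways. Sema3g and Sema6b rose by log2 2.15 ± 0.28 and 1.49 ± 0.24, and the plexins Plxnb3 and Plxnc1, of the family of semaphorin receptors, rose by 1.09 ± 0.11 and 0.78 ± 0.12. Sema5a fell from 3.53 and 3.53 to 0.99 and 0.67 FPKM (log2 -2.16 ± 0.23, adjusted p 0.000939), having stood at 57.7 and 64.0 FPKM before injury. Sema4f, Sema3a and Sema4d fell by 1.15, 1.13 and 0.94 on the log2 scale. Nrp2, the neuropilin co-receptor of class 3 semaphorins and the most abundant gene called in this list, fell from 86.2 and 88.2 to 53.0 and 48.0 FPKM. Epha5 fell by 1.26 on the log2 scale. Sema3f was near the floor, with 4 and 21 counts at day 3 and 2 and 1 at day 5. Its day 3 mean lay at least 3.01-fold above the floor of 3 counts, which rests on the second day 3 library. When 1 of the 4 libraries was left out, 10 to 13 genes of the list were called higher and 4 or 5 lower.

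**Figure D3:**
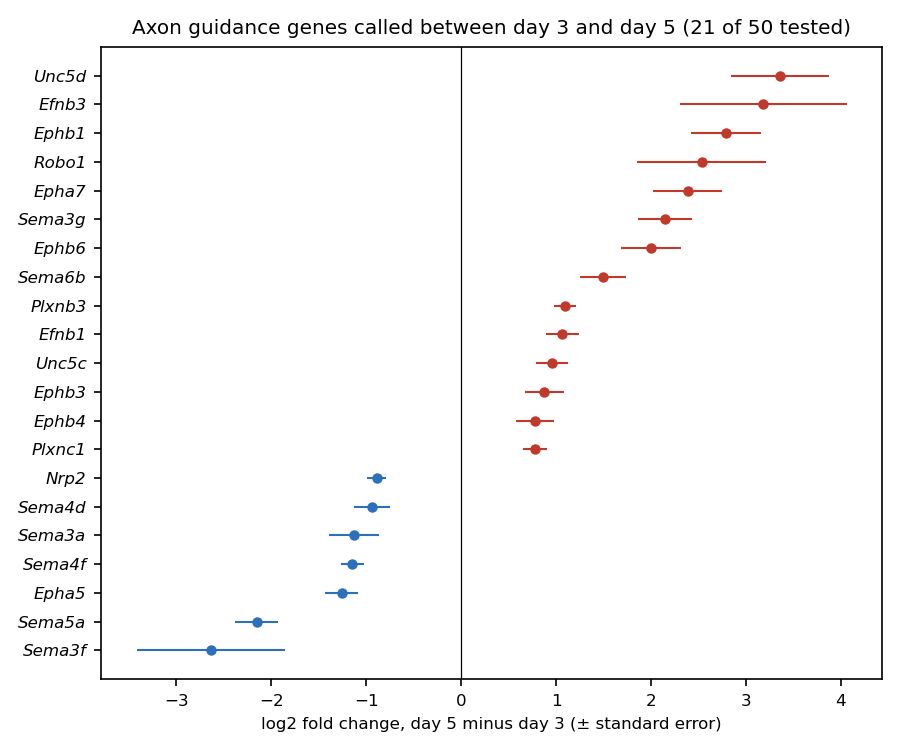
Log2 fold change of day 5 over day 3 with its standard error for the 21 axon guidance genes called in Schwann cells. The 14 in red range from Plxnc1 and Ephb4 (0.78) to Unc5d (3.36), and the 7 in blue from Nrp2 (-0.89) to Sema3f (-2.64), and the scarce genes Efnb3, Robo1 and Sema3f carry the widest errors.

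Of 14 genes of nodal, paranodal and axoglial adhesion 3 rose and 5 fell (57.1% called, and 1 to 3 higher and 4 or 5 lower without 1 library). Cadm4, the Schwann cell partner of axonal nectin-like proteins, rose from 27.9 and 25.9 to 56.7 and 48.1 FPKM (log2 0.88 ± 0.14), while its relatives Cadm2, Cadm3 and Cadm1 fell by 1.40, 1.03 and 0.62 on the log2 scale. Gldn, gliomedin of the node of Ranvier, rose from 3.9 and 3.51 to 6.24 and 9.38 FPKM, Cntnap2 rose by log2 1.05 ± 0.29, and Nrcam and Ank3 fell by 0.68 and 0.56 on the log2 scale. Of 12 Schwann cell markers 3 rose, S100b and Ncam1 among them, and L1cam and Ngfr fell (41.7% called, and 0 to 3 higher and 1 lower without 1 library). S100b was at 1266 and 1090.5 FPKM at day 3 and 1899.7 and 1937 FPKM at day 5. The rises of S100b and Ncam1 were not called without the second day 3 library.

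In the matrix, 6 of 31 collagen chains rose and 8 fell (45.2% called, and 4 to 7 higher and 3 to 6 lower without 1 library). Among the chains of collagen VI, Col6a1, Col6a2 and Col6a3 fell by 0.78, 0.91 and 0.56 on the log2 scale, as did Col11a1 and Col11a2 of collagen XI (0.69 and 0.86). Col8a2 had the largest fall, from 4.41 and 5.37 to 1.28 and 1.27 FPKM, and Col28a1, a collagen of peripheral glia, fell from 3.35 and 4.72 to 1.88 and 2.53. Col14a1, Col12a1, Col9a3, Col27a1, Col2a1 and Col24a1 rose, Col14a1 from 20.6 and 18.9 to 40.1 and 40.0 FPKM. Summed over all chains the collagens were at 3626 and 3674 CPM at day 3 and 4598 and 3872 CPM at day 5, and 15 fibroblast markers at 1590 and 1744 CPM at day 3 and 2060 and 1593 CPM at day 5. Both sums were highest in the first day 5 library, and the part of fibroblast RNA in the collagen values was not tested. Without the second day 3 library 7 collagens were called higher and 3 lower, and without the second day 5 library 6 and 4. Among 24 laminin chains and integrin subunits 4 rose and none fell (16.7% called, and 1 or 2 higher and 0 or 1 lower without 1 library). Upward, 6.52% of all genes were called. Lama2, Lamb1 and Lamc1, which form the main laminin of the Schwann cell basal lamina, rose by log2 0.42 ± 0.10, 0.50 ± 0.11 and 0.32 ± 0.09, and Itga8 by 1.43 ± 0.17. Itga8 was called whichever of the 4 libraries was left out, and Lamb1 in 1 of these 4 fits. Of 26 matrix proteases and their inhibitors 5 rose and 3 fell (30.8% called, and 3 to 5 higher and 2 to 5 lower without 1 library). Adamts17 rose from 0.61 and 0.54 to 4.48 and 3.83 FPKM (log2 2.79 ± 0.16), against 56.3 and 53.0 in uncrushed cells, and Adamts20, Adamts3, Adamts14 and Mmp15 rose by 1.45, 1.09, 0.86 and 0.71. Mmp11, Adamts4 and the inhibitor Timp3 fell.

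Few genes of cell division were called. Of 46 DNA replication genes 4 fell and none rose, and of 74 mitosis genes 6 fell and none rose, shares of 8.70% and 8.11% beside 6.90% of all genes. The medians were -0.16 and -0.15, and 34 of the 46 and 53 of the 74 had a negative fold change. The proliferation marker Mki67 was at 81.7 and 84.9 FPKM at day 3 and 73.5 and 69.7 FPKM at day 5 (log2 -0.29 ± 0.10, adjusted p 0.0714), and was not called. DESeq2 called it lower, as did edgeR without either uncrushed library and with only the 4 libraries. Top2a was at 64.0 and 60.8 FPKM at day 3 and 73.3 and 70.8 FPKM at day 5 (adjusted p 0.503). Ccne2 of S phase fell by 0.78 on the log2 scale, and Smc4 and Foxm1 of mitosis by 0.59 and 0.54. At most 1 gene of each list was called when 1 of the 4 libraries was left out, whereas without either uncrushed library 9 genes of each list were called lower and 1 replication gene higher. In the promoter search TTCCCGC (E2F) occurred in 45.7% of DNA replication promoters against 8.55% of all tested, and TTTGAA or TTTAAA (CHR) in 83.9% of mitosis promoters against 20.4%.

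Of 18 regulators of the G1 phase 5 rose and 3 fell (44.4% called, and 2 or 3 higher and 3 lower without 1 library). Cdk6, a cyclin D-dependent kinase, fell from 36.6 and 34.0 to 17.4 and 17.2 FPKM (log2 -1.11 ± 0.11, adjusted p 5.58e-05), and Ccnd1, cyclin D1, from 354 and 328 to 183 and 223 (log2 -0.83 ± 0.11). In the other direction Ccnd3, its relative, rose from 18.7 and 20.9 to 40.0 and 33.5 FPKM, as did Cdk4. The CDK inhibitors Cdkn1b (p27) and Cdkn1c (p57) rose by log2 0.45 ± 0.10 and 0.78 ± 0.17, the antiproliferative gene Btg2 rose by 0.97 ± 0.15, and Gadd45a fell by 0.82. Of 22 histone cluster genes 6 rose and none fell (27.3% called), the largest rise being that of Hist1h2ai at log2 1.71 ± 0.49, which was called in none of the 4 fits that left out a day 3 or day 5 library. Histone genes are near-identical copies among which reads can be split, so single members are uncertain. Each of these fits called 1 other gene of the list.

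Of 37 lysosomal genes 6 fell and 1 rose, with a median of -0.16 (18.9% called, and 1 higher and 4 or 5 lower without 1 library). Gpnmb, a glycoprotein of late endosomes and lysosomes, was at 64.1 and 68.7 FPKM at day 3 and 28.1 and 31.4 FPKM at day 5 (log2 -1.24 ± 0.12, adjusted p 7.1e-05), against 4.34 and 4.38 in uncrushed cells. The cathepsins Ctsl, Ctsa, Ctsb and Ctsd fell by 0.95, 0.64, 0.56 and 0.56 on the log2 scale, and the acid lipase Lipa by 0.47. Ctsl, at 124 and 122 FPKM at day 3 and 66.6 and 68.0 FPKM at day 5, stood below the 131 and 158 of uncrushed cells on both days. Galc, which degrades the myelin lipid galactosylceramide, rose from 36.7 and 35.6 to 63.0 and 59.3 FPKM (log2 0.66 ± 0.11). The CLEAR letters CACGTG occurred in 8 of 28 lysosomal promoters (28.6%) and in 9.65% of all tested. Of 16 genes of phagocytosis and lipid efflux Lgals3 and Elmo1 fell, Lgals3 (galectin-3) from 317 and 321 to 164 and 196 FPKM, and none rose. This share of 12.5% lies below that of all genes, and without 1 library 1 gene of the list was called lower.

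Of 20 enzymes of cholesterol synthesis Pmvk and Lss rose and none fell, with a median of 0.06 (10.0% called, and 0 or 1 higher and 0 lower without 1 library). Among 7 regulators of SREBP and cholesterol uptake Srebf1 rose and Insig1, Insig2 and Stard4 fell (57.1% called, and 0 or 1 higher and 0 to 2 lower without 1 library). The median of these 7 was -0.08, and -0.33 to 0.16 without 1 library. Of 21 genes of fatty acid and myelin lipid synthesis 3 rose (Gal3st1, the sulfatide-forming sulfotransferase, by log2 1.10 ± 0.24, and Elovl1 and Acly) and 2 fell (Scd by 1.22 and Acsl3 by 0.40 on the log2 scale), 23.8% called. Without 1 library at most 2 genes of this list were called higher and 1 lower, and Gal3st1 was called in 2 of the 4 fits. Ugt8, which makes galactosylceramide, was at 188 and 168 FPKM at day 3 and 216 and 198 FPKM at day 5 (adjusted p 0.457).

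Of 31 genes of tubulins, stathmins and growth-associated cytoskeleton 7 fell and 2 rose (29.0% called). Gap43, a protein of growth cones and of immature Schwann cells, was at 10.9 and 11.9 FPKM at day 3 and 4.41 and 4.11 FPKM at day 5 (log2 -1.50 ± 0.26, adjusted p 0.00287). The stathmin Stmn4 and the tubulins Tubb3, Tubb4b and Tubb6 fell by 1.70, 1.03, 0.68 and 0.39 on the log2 scale, and Map1b and Tmsb4x by 0.56 and 0.44. Marcksl1 and Cnn3 rose. Without the second day 3 library or the first day 5 library 2 genes of this list were called lower, without the second day 5 library 4, and without the first day 3 library 6.

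All 13 protein genes of the mitochondrial genome had a negative fold change and 9 fell (69.2% called), with a median of -0.70. ATP6 fell the most, from 5837 and 5932 to 3125 and 2431 FPKM (log2 -1.17 ± 0.14), and COX1 went from 18679 and 19163 to 13050.3 and 9964. This list was added after ATP6 had been seen among the called genes. When 1 of the 4 libraries was left out, 6 to 9 of these genes were called lower. Of 74 nuclear genes of oxidative phosphorylation Ndufb8 and Ndufs8 rose and none fell (2.70% called), and neither was called in any of the 4 fits that left out a library. Of 76 ribosomal protein genes Rpl3, Rps9 and Rpl12 rose (3.95% called), and at most 2 of the list were called higher without 1 of the 4 libraries, but 7 and 9 without the first and the second uncrushed library. In glycolysis 3 of 28 genes rose and 3 fell (21.4% called). Ldhb rose from 45.2 and 40.0 to 80.6 and 87.8 FPKM while Ldha, the other lactate dehydrogenase subunit, fell from 1311 and 1311 to 1111 and 995, and Pfkm and Aldoc rose as Pgk1 and Pgam1 fell. Without 1 of the 4 libraries 3 genes of this list were called higher and at most 1 lower.

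Among stress responses, 3 of 22 endoplasmic reticulum chaperones and unfolded protein response genes fell (Manf, Calr and Xbp1, by 0.54, 0.47 and 0.36 on the log2 scale) and none rose, 13.6% called beside 13.4% of all genes. Without 1 of the 4 libraries at most 2 genes of this list were called lower, and without the first and the second uncrushed library 8 and 6. Of 16 genes of the amino acid response 4 rose: Ddit4, and the serine synthesis enzymes Phgdh, Psat1 and Psph by log2 0.94 ± 0.14, 0.65 ± 0.16 and 0.66 ± 0.15. Of these 16 25.0% were called, and without 1 library 2 were called higher and at most 1 lower. The heat shock genes Dnajb1 and Hsp90ab1 rose, of 13 (15.4% called, and 1 or 2 higher and 0 lower without 1 library), a share close to that of all genes. Of 34 interferon response genes Mx1 and Mx2 rose, from 4.98 and 4.38 to 16.3 and 16.6 FPKM for Mx2, while Ifi27, Gbp2 and B2m fell. These 5 are 14.7% of the list, close to the share of all genes. When 1 of the 4 libraries was left out 2 genes of this list were called higher and none lower. Mx1 and Mx2 are close relatives that can share reads. Of 18 chemokines and cytokines Il34 rose (log2 1.52 ± 0.29) and Csf1 fell (log2 -0.81 ± 0.12), both ligands of the receptor Csf1r (11.1% called). Without the first day 3 library 5 of the 21 then tested were called lower, DESeq2 called 4 of 26 lower, and with no filter on low counts 6 of 24 were called lower. The list median was -0.59 without the first day 3 library and 0.03 without the second, the library with the most macrophage marker RNA, whose part in these values was not tested. None of 11 complement genes and none of 5 MHC class II genes was called.

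Hedgehog pathway genes rose in 3 of 10 (30.0% called, and 1 to 3 higher and 0 lower without 1 library). Dhh, the desert hedgehog ligand of Schwann cells, was at 60.4 and 60.4 FPKM at day 3 and 109 and 112 FPKM at day 5 (log2 0.79 ± 0.10, adjusted p 0.00036), above its uncrushed level of 63.4 and 61.8, and the receptor Ptch1 and the co-receptor Gas1 rose by log2 0.38 ± 0.10 and 0.96 ± 0.22. Gas1 was called in 2 of the 4 fits that left out a day 3 or day 5 library. Of 11 Notch pathway genes Hey2 and Notch2 fell (18.2% called), Hey2 being called in 1 and Notch2 in none of the 4 fits that left out a day 3 or day 5 library. Of 21 genes of TGF-beta and BMP signaling Tgfb1 fell by 0.70 on the log2 scale, and Tgfbr3, Id1 and Id2 rose (19.0% called, and 2 higher and 0 or 1 lower without 1 library). Among 57 ion channel subunits 6 rose and 2 fell, so 8 were called, a share close to the 13.4% of all genes. Without 1 library 2 to 5 were called higher and 1 to 3 lower. Kcnj10, the inward rectifier of glia, rose from 3.73 and 3.37 to 12.4 and 14.7 FPKM (log2 1.84 ± 0.16, adjusted p 3.29e-05), and Kcna2, a voltage-gated potassium channel, from 1.15 and 1.05 to 4.35 and 3.48 (log2 2.14 ± 0.17). Cacna1h and Kcnip3 rose by 1.36 and 1.21 on the log2 scale, Kcnj11 rose from 1 count in each day 3 library (at least 2.88-fold higher) and Kcng2 from none (at least 1.44-fold higher), though Kcng2 was called in none of the 4 fits that left out a day 3 or day 5 library, and Kcnd3 and Kcnk1 fell.

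Among markers of other cells, Mfap5 fell of 14 for fibroblasts (7.14% called), Vwf fell and Tek rose of 7 for endothelial cells (28.6%), Acta2 and Cspg4 fell and Pdgfrb rose of 9 for pericytes and muscle (33.3%), and Cldn1 fell of 5 for perineurial cells and satellite glia, beside 13.4% called of all genes. Of the neutrophil and lymphocyte markers 5 were at 0 in all 4 libraries. The single neutrophil and lymphocyte marker and the 3 adipocyte and red cell markers tested were not called. Acta2, at 0.47 and 2.12 FPKM at day 3 and 0.18 and 0.3 FPKM at day 5, Cldn1, at 0.67 and 1.35 FPKM at day 3 and 0.46 and 0.28 FPKM at day 5, and Vwf were highest in the second day 3 library, and each lost its call without that library and without either day 5 library. Without the first day 3 library 4 endothelial markers were called lower. The part of other cells in these values was not tested.

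Of the named genes 134 were called, and 73 of these were also called in each of the 4 fits that left out a day 3 or day 5 library, 11 in 3 of the fits, 6 in 2, 26 in 1 and 18 in none. Beyond those given above, Acsl3, Cnn3, Elmo1, Foxm1, Hist2h3c2, Manf and Pgam1 were called in none of the 4, and Calr, Ccne2, Cntnap2, Efnb3, Elovl1, Hsp90ab1, Insig1, Lss, Marcksl1, Pgk1, Pmvk, Rps9, Sema3f, Stmn4, Tek and Tgfb1 in 1. Dusp4, Rpl3 and Stard4 were called in 2, and Col24a1, Col28a1, Gldn, Il34, Kcnd3, Kcnj11, Kcnk1, Nr4a3 and Smc4 in 3.

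**Figure D4:**
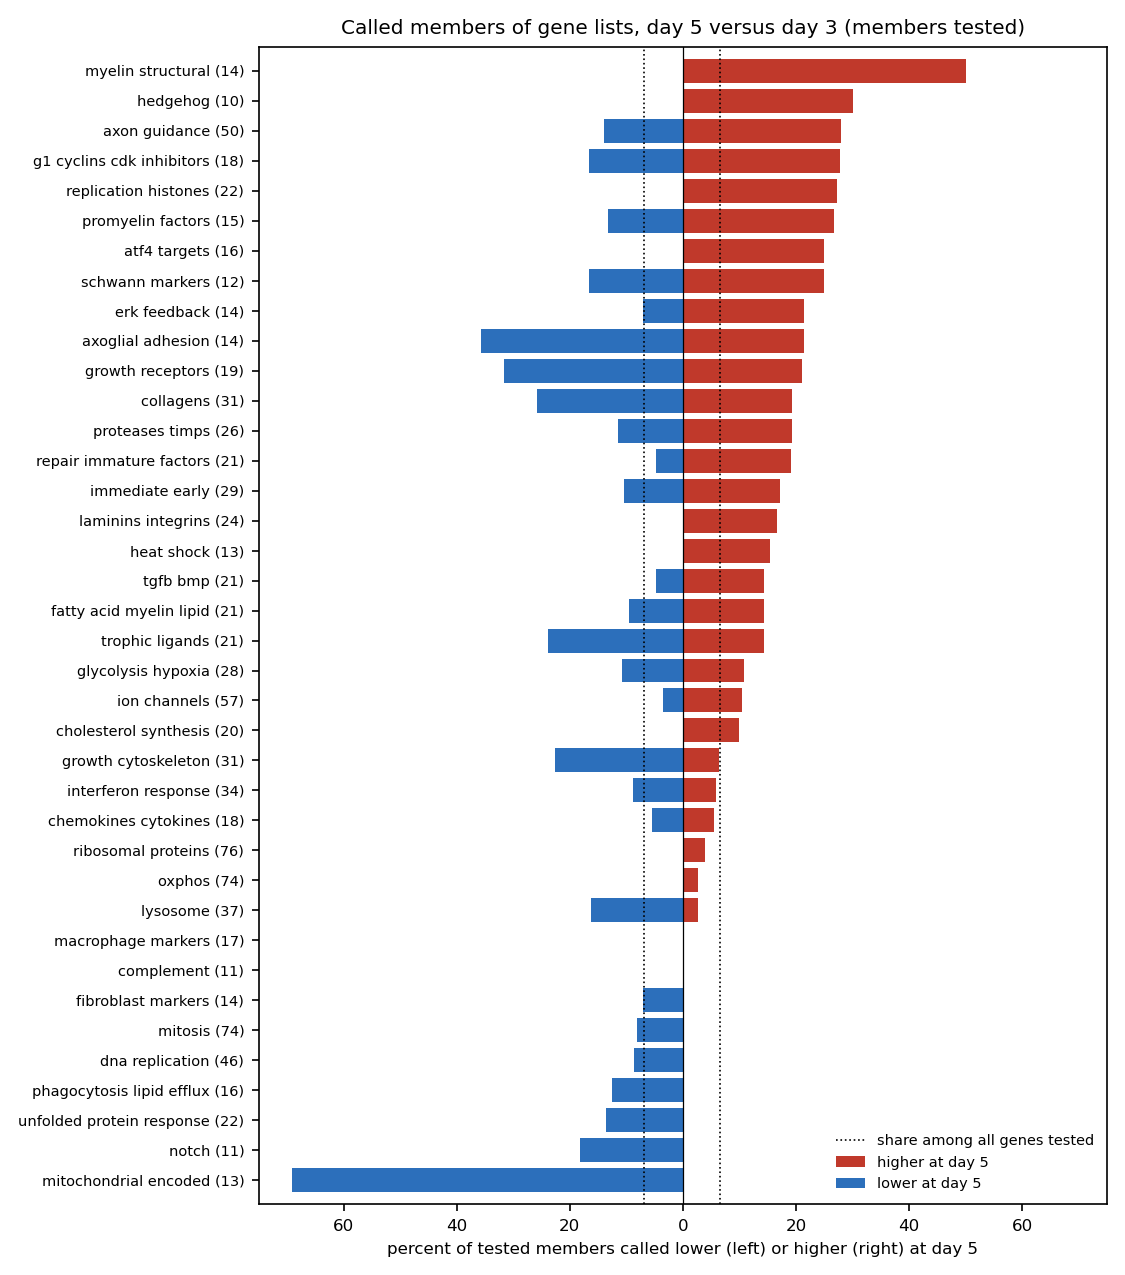
Share of tested members called higher (red, right) or lower (blue, left) at day 5 for the 38 lists with at least 10 members tested, the number tested in brackets, and dotted lines at the shares of all genes (6.52% and 6.90%). Structural myelin genes extend furthest to the right and the genes of the mitochondrial genome furthest to the left.

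Whole nerve was sequenced at the same days in separate libraries, and a fit of all 16 libraries tested whether the change from day 3 to day 5 differed between purified cells and whole nerve. The difference was called for 584 of 16829 genes (3.47%), more positive in Schwann cells for 189 (1.12%) and more negative for 395 (2.35%). In whole nerve alone, 1557 genes (9.25%) were called between the 2 days. With 1 library left out the count of called differences lay between 186 without the second day 5 whole nerve library and 895 without the second uncrushed Schwann cell library, and DESeq2 called 1067. The split depended on scaling, with 32.4% of calls positive in the fit reported, 43.1% under upper quartile normalization and 23.6% under RLE normalization. Of the 2009 genes called in Schwann cells 347 differed, 114 that rose and 233 that fell, and 247 of the 347 had the opposite sign in whole nerve. The 347 were picked by this difference, and the sign in whole nerve was counted whether or not the change was called there. Across the 2009 genes the fold changes in the 2 tissues had a Pearson r of 0.607 and the same sign for 76.2% of genes, against 0.242 and 59.8% over 14938 genes. Genes are not independent replicates, and these values describe the libraries.

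Cldn19 in whole nerve went from 4.96 and 4.05 to 34.0 and 35.4 FPKM, a log2 change of 3.33, and its difference of 0.23 from purified cells was not called (adjusted p 0.644). Mag differed by -0.16 (adjusted p 0.87), Pou3f1 by -0.51 (0.294) and Egr2 by 0.25 (0.587). A difference that misses the threshold does not show equal change. For other genes the difference was called. Dab2, which rose in Schwann cells, went from 114 and 112 to 88.5 and 92.5 FPKM in whole nerve, a difference of 2.26 on the log2 scale (adjusted p 1.45e-06). Socs3 went from 5.36 and 8.21 to 4.59 and 5.31 there, a difference of 1.51, and Ntm from 6.25 and 6.12 to 17.2 and 15.8, rising in both but by 2.13 more in Schwann cells. The whole nerve changes of Dab2 and Socs3, -0.29 and -0.42 on the log2 scale, were not called in edgeR's test (adjusted p 0.107 and 0.114). Nkd2 in whole nerve was at 8.49 and 10.1 FPKM at day 3 and 8.82 and 8.6 at day 5, and differed by -1.73 (adjusted p 8.78e-06). Rbpms, Sema5a and Tanc2 fell in Schwann cells and had whole nerve changes of 0.24, -0.02 and 0.19, with differences of -2.16, -2.13 and -1.43. Spp1 fell further in whole nerve, from 166 and 206 to 46.0 and 49.1 FPKM, a difference of 0.93. In whole nerve the Schwann cells' own RNA is part of the mixture, so the tissues are different samples of overlapping cells.

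**Figure D5:**
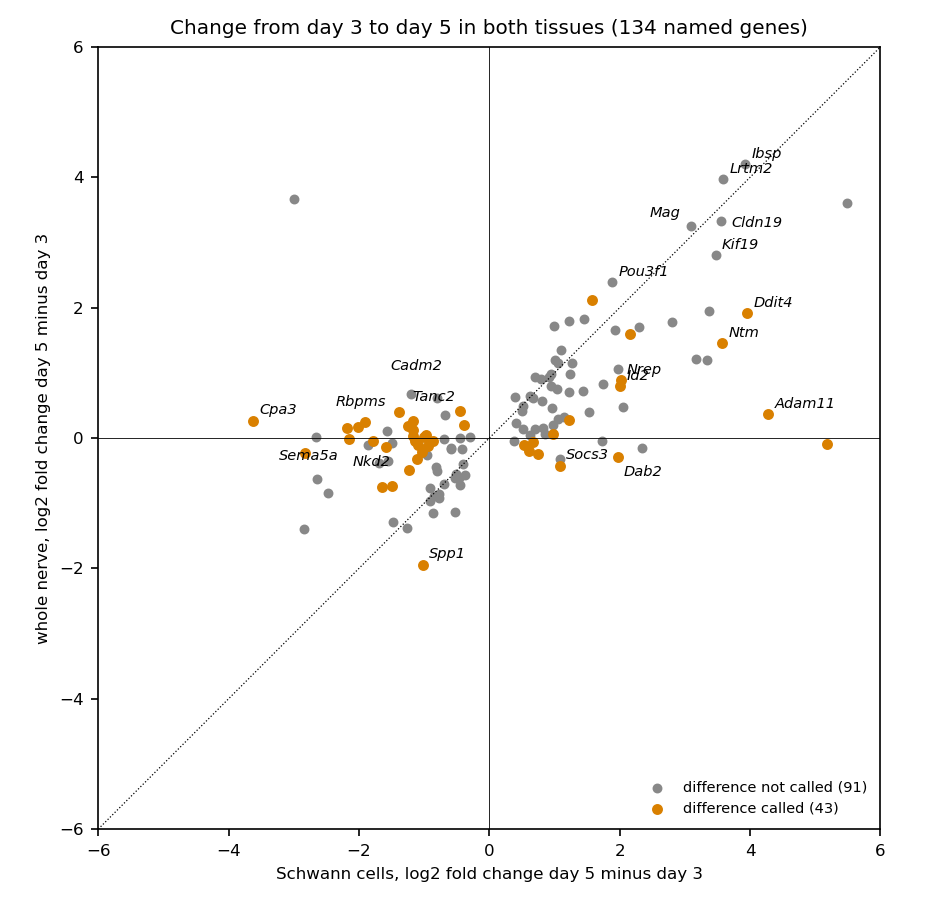
Log2 fold change of day 5 over day 3 in Schwann cells (horizontal) and whole nerve (vertical) for 134 named genes called in Schwann cells, from the fit of 16 libraries, with the 43 whose difference between tissues was called in orange, the other 91 in grey, and the dotted line marking equal change. Cldn19, Mag, Ibsp and Lrtm2 lie near the line, and Dab2, Adam11, Nkd2, Rbpms and Sema5a near 0 in whole nerve.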

How the data were processed

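RNA was amplified to cDNA and sequenced without molecular identifiers. Per the labels and the study's methods, the authors aligned reads with STAR to Rnor_6.0 and counted them with RSEM, and deposited expected counts and FPKM per gene and sample. Whether counting used strand is not given in the sources used here. A deposited matrix repeating the counts, and a table of the authors' co-expression modules with FPKM from another pipeline, were not used. Expected counts were rounded and tested with edgeR 4.0.16 in R 4.3.3 (quasi-likelihood, TMM normalization, filterByExpr) over the 8 Schwann cell libraries, with group as the sole factor. The difference from whole nerve was a contrast in a fit of all 16 libraries. P-values were Benjamini-Hochberg adjusted over all genes tested, with a threshold of 0.05. FPKM are shown for levels only. DESeq2 1.42.0, other scalings, filters and omitted libraries were alternatives, and the scripts were tested on simulated data. Precision is limited by 2 libraries per day, and floors of 3 counts cover counting error only.

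The comparison and the gene lists were chosen with earlier results of these data known. Genes named by rule were the 12 with the lowest p in each direction with no overlap between days and a gene symbol, the 2 largest called rises and falls of each list, the 5 largest changes in each direction with a mean of at least 1 FPKM, and a few markers whatever their call, among them Sox10, Ptprc, Cd68, Mki67 and Top2a. Some members of the lists are counted but not reported here by name. Other members named, and the list of mitochondrial genes and the SOX, TEAD and CLEAR motifs, were chosen after values were seen. Promoters were matched by symbol to RefSeq (GRCr8), a newer build than that of the counts, and no coordinate was converted.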

Additional observations from a re-analysis of the deposited data

Results flagged for a closer look

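For 43 of the 134 named genes called in Schwann cells, the change from day 3 to day 5 differed from that in whole nerve, tested as a contrast in the edgeR fit of 16 libraries at an adjusted p below 0.05. Values are the log2 fold change in Schwann cells minus that in whole nerve.

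Genes that fell in Schwann cells and had a negative difference were Cpa3 -3.89, Vwf -2.60, Clec2g -2.33, Col8a2 -2.18, Rbpms -2.16, Sema5a -2.13, Cadm2 -1.79, Nkd2 -1.73, Mfap5 -1.45, Tanc2 -1.43, Arhgef3 -1.42, Gfra2 -1.30, Cspg4 -1.20, Sema4f -1.09, Kcnd3 -1.03, Cdyl -1.01, Cdk6 -0.996, Pde1c -0.88, Insig1 -0.87, Ctsl -0.82, Nab1 -0.81, Cadm3 -0.81, Runx2 -0.78, Igfbp5 -0.74, Gpnmb -0.73 and Acsl3 -0.59. Among genes that fell, the difference was positive for Spp1 at 0.93. Genes that rose in Schwann cells and had a positive difference were Kcng2 5.28, Adam11 3.92, Dab2 2.26, Ntm 2.13, Ddit4 2.05, Socs3 1.51, Id2 1.22, Nrep 1.12, Dnajb1 0.99, Pdgfrb 0.95, Gas1 0.91, Pmvk 0.80, Galc 0.74, Rpl3 0.64 and Pde7b 0.56. Among genes that rose, the difference was negative for Tmprss5 at -0.54. 

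When each of the 8 day 3 and day 5 libraries of both tissues was left out in turn, 19 of these differences were called in every fit: Adam11, Arhgef3, Cadm2, Cdk6, Cdyl, Clec2g, Col8a2, Dab2, Dnajb1, Mfap5, Nkd2, Nrep, Ntm, Pde1c, Pdgfrb, Rbpms, Sema5a, Socs3 and Tanc2. Gas1, Kcng2 and Pde7b were called in none, and the others, Spp1 among them, in 1 to 7 of the 8. Without the second day 3 whole nerve library 21 of the 43 were lost, and without the second day 5 whole nerve library 19. Kcng2 had no counts at day 3 in Schwann cells and Vwf had few at day 5. Their fitted differences therefore depend on the prior count and are not measured folds. Cpa3 was highest in the day 3 library with the most RNA of other cells. Groups of 2 libraries were too small to be tested for outlying samples.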

How the results depend on the processing

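Requiring at least a 2-fold change left 626 called genes, 310 higher and 316 lower, and for the difference between tissues 269, with 100 higher and 169 lower. DESeq2 called 1741 genes between days, 714 higher and 1027 lower, and 1595 of the 1741 were shared with edgeR. It called 1067 differences, 830 of them lower. With no filter on low counts 2739 genes were called between days and 1341 differences, 412 higher and 929 lower. The fit of only the 4 libraries called 2775 genes, 1256 higher and 1519 lower. Leaving out 1 library gave 815 to 2540 called genes, with 401 to 1235 higher and 413 to 1321 lower, the low counts coming from omission of a day 3 or day 5 library. For the difference the range was 186 to 895, with 53 to 288 higher and 133 to 607 lower, lowest without the second day 5 whole nerve library. The omitted day's remaining library was then assumed to vary like the other groups. The libraries of days 3 and 5 did not overlap for any of the 134 called named genes. Leaving out 1 of these libraries could therefore hardly change a sign, and 0 changed. How many genes kept their call is given above. The macrophage markers Cd68 and Ptprc, which overlapped between days and were not called, changed sign. Cd68 ranged from -0.75 to 0.98, with 0.98 without the second day 3 library and 0.06 without the second day 5 library. Ptprc ranged from -2.26 to 0.57, with 0.57 without the second day 3 library. The cause was not tested. Replicate numbers did not pair the samples (correlation of same-numbered deviations -0.019 between days 3 and 5), and with a replicate block 1852 genes and 578 differences were called.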
